A study of Homo sapiens with 6 samples.

Results

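Annexins are the subject here, described gene by gene and transcript by transcript in TE-1 cells, a human esophageal squamous cell carcinoma (ESCC) line. The members were the 10 human genes with the symbols ANXA1 to ANXA7, ANXA9, ANXA10 and ANXA11, taken by name. Of these symbols 9 were among the 12180 genes listed with values, and ANXA10 was not analysed here. The 9 genes had 47 of the 33090 listed transcripts. RNA-seq had been run on 6 libraries of oligo(dT)-enriched RNA, 3 from control cells (NC) and 3 from cells overexpressing FGL1 (FGL1-OE), a liver-derived secreted protein of the fibrinogen family. Per the study's methods, FGL1 was introduced with a lentivirus and the control virus carried a nonsense sequence, whereas the labels give the genotype of the control samples as WT, and these sources do not settle whether the control libraries carried that virus. The cells with the FGL1 virus were a stable line selected with puromycin. The study speaks of independent experiments in general, but neither its methods nor the labels say that the 3 sequenced samples of a group came from separate cultures, so the p-values below measure only the spread between these samples, which may be technical.

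Levels are given in FPKM, fragments scaled to transcript length and to the mapped fragments of the library. FGL1 itself was 0.0202, 0 and 0.106 FPKM in the NC libraries 1 to 3 and 33.5, 39.3 and 39.9 FPKM in the FGL1-OE libraries 1 to 3 (log2 fold change 5.21, SE 0.15, limma adjusted p = 1.29e-05). The NC libraries were less alike than the FGL1-OE libraries. The lowest correlation of log2 values within NC was 0.888, between replicates 1 and 2, while those within FGL1-OE were 0.982 to 0.986, and the median SD of the log2 level over genes was 0.306 for NC against 0.120 for FGL1-OE. Of 10 markers of squamous epithelium or of epithelium in general 8 were analysed. EPCAM, an epithelial adhesion molecule, was 90.5 to 122 FPKM and KRT6A, a keratin of stratified epithelium, 108 to 197 FPKM, but TP63, the defining transcription factor of squamous epithelium, was only 0.299 to 0.779 FPKM. KRT6A and the cell adhesion gene CDH1 were higher in every FGL1-OE library than in any NC library, with unadjusted p-values of 0.0241 and 0.0263 and adjusted p = 1.000 for both (limma). The summed level of these markers was 287 to 322 FPKM in NC and 383 to 399 FPKM in FGL1-OE, and its part in the annexin values was not tested. Most of this difference came from KRT6A, at means of 136 and 191 FPKM, and CDH1, at 43.0 and 61.8 FPKM. The squamous keratin KRT5 was 5.40 and 5.10 FPKM, the desmosomal cadherin DSG3 8.67 FPKM in both groups, and TP63 0.519 and 0.431 FPKM. Fibroblast markers, 3 of 6 analysed, summed to 2.29 to 8.11 FPKM in NC and 3.24 to 8.27 FPKM in FGL1-OE, and immune markers, 2 of 5 analysed, to 3.11 to 6.06 and 3.62 to 5.67 FPKM. The 4 endothelial markers were not analysed here. In such bulk samples a change in the number of cells of a type and a change in RNA per cell cannot be told apart.

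Annexins are proteins that bind acidic phospholipids, such as phosphatidylserine, when calcium rises. Each has a conserved core of repeats that carries the calcium sites and a variable amino-terminal tail that binds partners such as S100 proteins, and ANXA6 alone among the human annexins has a doubled core. They act in membrane repair, vesicle fusion, the link between membrane and actin, and the cell-surface plasminogen system. ANXA1, known for its anti-inflammatory action, and other annexins are prominent in stratified squamous epithelium. ANXA7, also called synexin, promotes membrane fusion, and its pre-mRNA is known to be spliced into a short and a long form. The long form, with an additional exon in the amino-terminal part, is known from skeletal muscle, heart and brain, and the short form is found in most other tissues.

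The alternative ANXA7 exon is shown first because the one annexin transcript that passed the test holds it. The gene lies at chr10:75134859-75173834 (GRCh37, the build of the submitters' processing notes). Its 3 listed transcripts were ANXA7-201 (ENST00000372919), ANXA7-202 (ENST00000372921) and the partial model ANXA7-203 (ENST00000394847). In GENCODE v29, ANXA7-201 has 14 exons, 2174 bases and 488 codons before the stop, and ANXA7-202 has 13 exons, 2452 bases and 466 codons. Exon 6 of ANXA7-201, 66 bases at chr10:73396044-73396109 (GRCh38, minus strand), lies within the coding sequence, adds 22 codons without shifting the frame and is skipped in ANXA7-202. The sequences below run 5′ to 3′ along the coding strand from the coding bases before the exon to those after it. Capitals mark exon 6 in ANXA7-201 and the 3 bases on either side of the junction in ANXA7-202.
ANXA7-201: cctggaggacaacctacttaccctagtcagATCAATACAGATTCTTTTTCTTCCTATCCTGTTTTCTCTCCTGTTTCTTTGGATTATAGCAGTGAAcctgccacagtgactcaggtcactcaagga
ANXA7-202: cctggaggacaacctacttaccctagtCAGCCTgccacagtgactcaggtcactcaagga
Beside this exon, the models differ only at the 3′ end, where ANXA7-202 runs on for 344 further non-coding bases. Of the 2144 different stretches of 31 bases in ANXA7-201, 96 (4.48%) are absent from ANXA7-202, and of the 2422 in ANXA7-202, 374 (15.4%) are absent from ANXA7-201. These stretches touch exon 6 in ANXA7-201, and the junction without it or the longer 3′ end in ANXA7-202. The levels below belong to whole transcript models, and reads over exon 6 or its junctions were not counted here. Whether the split between the models rests on exon 6 or on the 3′ end was not tested. The model ANXA7-201 is not part of the basic set of GENCODE, although its coding sequence is complete.

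**Figure D1:**
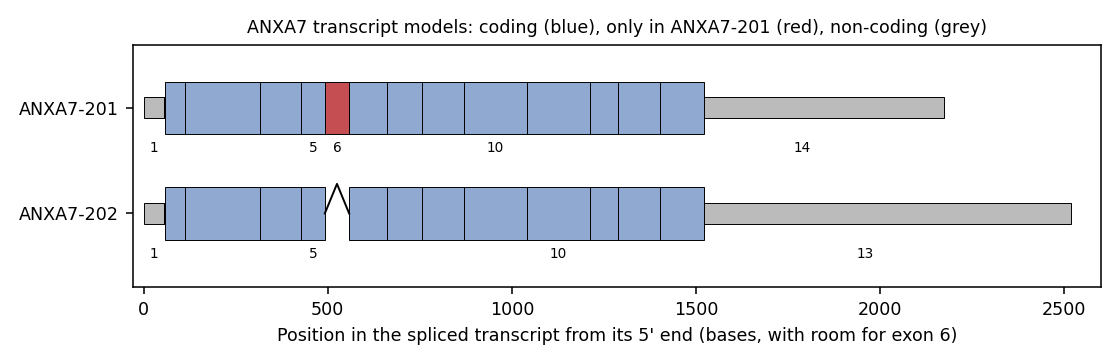
Models of ANXA7-201 and ANXA7-202 drawn to scale along the spliced transcript in bases from the 5′ end, with coding exons as tall blocks and non-coding stretches as low blocks. Exon 6 of ANXA7-201 (66 bases, red) is skipped in ANXA7-202, whose last exon is 344 bases longer.

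Transcript ANXA7-201 was near 0 in the control cells and one of the leading annexin transcripts in the FGL1-OE cells. It was 0.503, 0.892 and 0 FPKM in NC libraries 1 to 3 and 49.8, 66.5 and 55.7 FPKM in FGL1-OE libraries 1 to 3. The means were 0.465 ± 0.447 and 57.3 ± 8.47 FPKM (SD, n = 3), and the groups were far apart. The log2 fold change of FPKM + 1 was 5.35 (SE 0.31, 95% interval 4.60 to 6.11), with a limma adjusted p of 0.0166 over 30330 transcripts, the third lowest p and the second largest rise among them. ANXA7-201 was the 1 annexin transcript of 45 tested that passed, and over all transcripts tested 0.0165% passed. The exact two-sided permutation test gave p = 0.1, the smallest value that 3 against 3 libraries allow.

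The level assigned to the model ANXA7-202, which skips the exon, was lower in FGL1-OE than in NC. It was 110, 140 and 102 FPKM in NC and 55.7, 75.0 and 58.5 FPKM in FGL1-OE, so the highest FGL1-OE library lay below the lowest NC library. The means were 117 ± 20.1 and 63.1 ± 10.4 FPKM (SD, n = 3). The log2 fold change was -0.88 (SE 0.26, 95% interval -1.50 to -0.26), with a limma adjusted p of 1.000, and it did not pass the test over all transcripts. ANXA7-201 and ANXA7-202 were the 2 annexin transcripts with an unadjusted p under 0.05, where the share over all transcripts was 3.53%. ANXA7-203, whose model ends before exon 6, was 7.59, 2.42 and 2.67 FPKM in NC and 2.44, 2.58 and 2.10 FPKM in FGL1-OE, with overlapping groups.

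The sum of both complete transcripts and the gene value overlapped between the groups. ANXA7-201 and ANXA7-202 together made 110, 141 and 102 FPKM in NC and 106, 141 and 114 FPKM in FGL1-OE, with means of 118 ± 20.5 and 120 ± 18.8 FPKM (SD, n = 3, exact permutation p = 0.700). The ANXA7 gene value was 97.1, 122 and 88.6 FPKM in NC and 86.7, 116 and 94.0 FPKM in FGL1-OE, with the highest value of either group in replicate 2 (log2 fold change -0.049, SE 0.19, 95% interval -0.49 to 0.39).

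**Figure D2:**
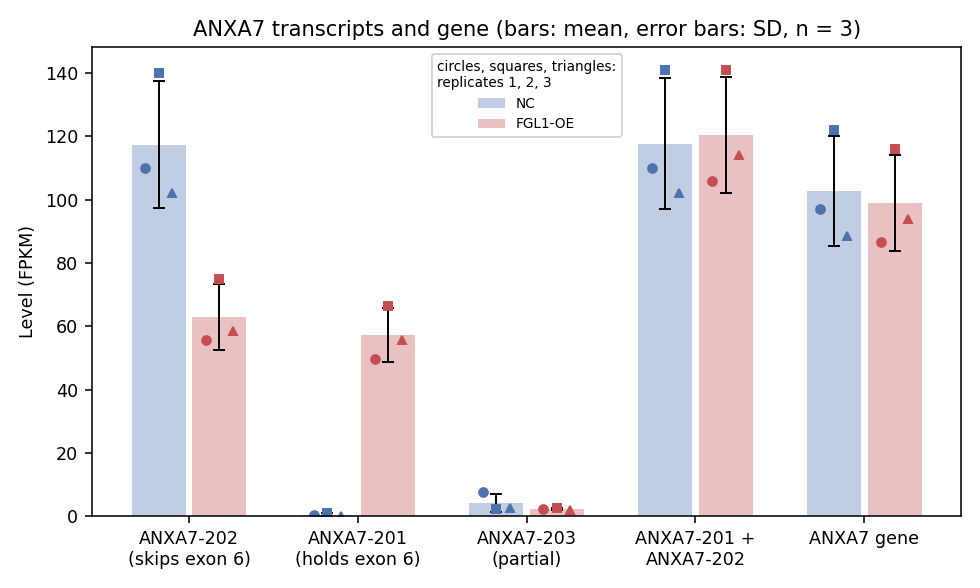
Levels in FPKM of the ANXA7 transcripts, of the sum of ANXA7-201 and ANXA7-202 and of the ANXA7 gene, with bars for the group mean, error bars for the SD (n = 3) and 1 point per library. ANXA7-201 lies at 0 to 0.892 FPKM in NC and at 49.8 to 66.5 FPKM in FGL1-OE, while the sum and the gene overlap between the groups.

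As a share of the summed FPKM of the 3 listed ANXA7 transcripts, ANXA7-201 made 0.427%, 0.623% and 0% in NC and 46.1%, 46.2% and 47.9% in FGL1-OE. The mean share was 0.350% ± 0.319 in NC and 46.7% ± 1.01 in FGL1-OE (SD, n = 3), a difference of 46.4 percentage points. On the arcsine square root scale, on which shares were tested with limma, the adjusted p was 0.0246 over 27832 shares. ANXA7-202 made 93.1%, 97.7% and 97.4% in NC and 51.6%, 52.0% and 50.3% in FGL1-OE, a difference of -44.8 percentage points, with limma adjusted p = 0.0831, which missed the threshold of 0.05. Both shares belong to 1 gene and are not independent. Over all shares tested 12 passed (0.0431%), and ANXA7-201 had the tenth lowest p. Between the complete transcripts alone, ANXA7-201 took 0.457%, 0.634% and 0% in NC and 47.2%, 47.0% and 48.8% in FGL1-OE, so that both transcripts were about equally abundant in each FGL1-OE library.

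ANXA7-201 kept its direction under every alternative run, but the adjusted p depended on the settings. With a pseudocount of 0.1 the log2 fold change was 7.19 and the limma adjusted p 0.143, after scaling to a common sum 6.33 and 0.0664, and without variance moderation 5.35 and 0.148. Leaving out NC replicate 1, NC replicate 3 or FGL1-OE replicates 1, 2 and 3 in turn gave limma adjusted p-values of 0.0783, 0.0681, 0.0697, 0.111 and 0.149, and leaving out NC replicate 2 gave 0.0215. For the share, the same omissions gave 0.0644, 0.0915, 0.111, 0.126 and 0.115, against 0.0427 without NC replicate 2.

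By gene value the annexins were abundant in these cells, led by ANXA5 and ANXA7, while ANXA2 led by summed transcript values. The transcript sums over the 6 libraries were 362 to 524 FPKM for ANXA2, 143 to 194 FPKM for ANXA5 and 104 to 144 FPKM for ANXA7. The levels and the order that follow are those of the gene values. ANXA5, the phosphatidylserine binder used to stain dying cells, had a mean of 103 FPKM over the 6 libraries, and ANXA7 had 101 FPKM. ANXA5 was above ANXA7 in only 3 of 6 libraries, and their ranges overlapped. ANXA2, the partner of S100A10 at the plasma membrane, followed with 62.5 FPKM and ANXA1 with 50.5 FPKM, again with overlapping ranges and in this order in 5 libraries. ANXA11, an annexin with a long tail that links RNA granules to lysosomes, was at 31 FPKM and ANXA3 at 28.6 FPKM. ANXA9, an annexin whose calcium sites are degenerate, was at 21.7 FPKM, ANXA6 at 13.1 FPKM and ANXA4, known from secretory epithelia, at 5.28 FPKM. The order of ANXA11, ANXA3 and ANXA9 did not hold in every library. By gene value the ranges did not overlap between ANXA7 and ANXA2, between ANXA1 and ANXA11, between ANXA9 and ANXA6 and between ANXA6 and ANXA4. By transcript sums ANXA2 lay above ANXA7 in every library. ANXA6, at 28.1 to 40.1 FPKM, likewise lay above ANXA9, at most 25.7 FPKM. The sums of ANXA1 and ANXA11 overlapped. Of these pairs, only ANXA6 and ANXA4 kept their order apart, with ANXA4 sums of 15.6 to 22.5 FPKM. The order between genes thus depended on the measure.

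**Figure D3:**
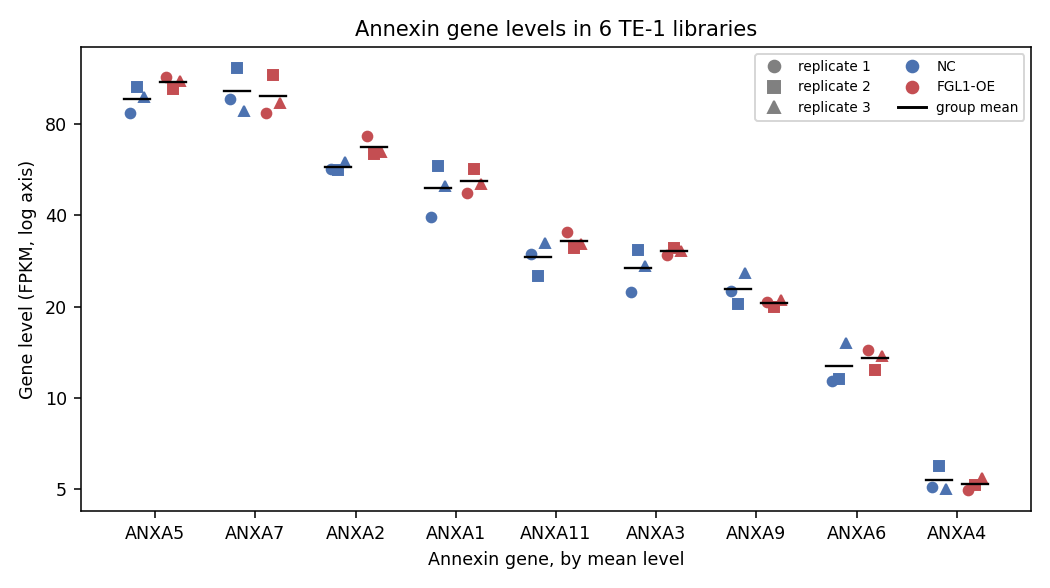
Gene levels of the 9 annexins in FPKM on a log axis, with 1 point per library (shape for the replicate, colour for the group) and a line for the group mean. By gene value ANXA5 and ANXA7 lead at means of 103 and 101 FPKM, and ANXA4 is lowest at 5.28 FPKM. ANXA2 is the gene whose groups do not overlap, and by summed transcript values, not drawn here, it leads.

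No annexin gene passed the test between FGL1-OE and NC. With limma, 0 of 9 had an adjusted p under 0.05 and 0 of 9 an unadjusted p under 0.05. Over the 12017 genes tested with limma, 0.00832% passed at the adjusted level, which was FGL1 alone, and 2.01% had an unadjusted p under 0.05. An ordinary linear model gave 0 of 9 adjusted calls and 1 of 9 at an unadjusted p under 0.05, ANXA2. In that run 374 of the 12017 genes had such a p. The log2 fold change lay above 0 for 6 genes and below 0 for 3, where 53.7% of all genes tested lay above 0, and ran from -0.14 to 0.21 with standard errors of 0.14 to 0.19. The median over the 9 genes was 0.092, beside 0.016 over all genes tested.

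ANXA2 was the 1 gene of 9 whose groups did not overlap, where 7.15% of all genes tested had groups that did not overlap. Its gene lies at chr15:60639333-60695082 (GRCh37). It was 56.9, 56.6 and 60.0 FPKM in NC and 73.3, 63.8 and 64.6 FPKM in FGL1-OE (log2 fold change 0.21, SE 0.14, 95% interval -0.12 to 0.54, limma adjusted p = 1.000). The exact permutation test gave p = 0.1, the smallest possible. All FGL1-OE libraries were above all NC libraries, and FGL1-OE replicate 1 stood highest.

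The other genes had overlapping groups. ANXA1 (chr9:75766673-75785309, GRCh37) was 39.6, 58.0 and 50.0 FPKM in NC and 47.5, 57.0 and 50.7 FPKM in FGL1-OE. ANXA5 (chr4:122589110-122618268) was 87.1, 106 and 97.9 FPKM in NC and 114, 104 and 111 FPKM in FGL1-OE. In both genes NC replicate 1 was the lowest library. ANXA3 (chr4:79472673-79531605), linked to cell migration, was 22.3, 30.7 and 27.2 FPKM in NC and 29.7, 31.3 and 30.4 FPKM in FGL1-OE. ANXA11 (chr10:81910645-81965328) was 29.8, 25.2 and 32.3 FPKM in NC and 35.3, 31.3 and 32.1 FPKM in FGL1-OE. The log2 fold changes of ANXA3, ANXA5 and ANXA11 were 0.19, 0.18 and 0.18, and each 95% interval included 0. ANXA3 was 0.073 and ANXA5 0.10 without NC replicate 1, and ANXA11 was 0.080 without NC replicate 2. For ANXA11 the sum of the listed transcripts gave 0.43 (limma adjusted p = 1.000). These sums, 80.8, 74.5 and 114 FPKM in NC and 125, 116 and 116 FPKM in FGL1-OE, did not overlap. The ANXA3 transcript sums did not overlap either, at 67.4, 88.8 and 82.6 FPKM in NC and 90.3, 94.6 and 90.9 FPKM in FGL1-OE (log2 fold change 0.21). How many of all genes had transcript sums that did not overlap was not counted. ANXA6 (chr5:150480273-150537443) was 11.4, 11.5 and 15.2 FPKM in NC and 14.4, 12.4 and 13.7 FPKM in FGL1-OE. ANXA4 (chr2:69871557-70054232) was 5.07, 5.98 and 5.02 FPKM in NC and 4.96, 5.18 and 5.43 FPKM in FGL1-OE. ANXA9 (chr1:150954493-150968110) was 22.59, 20.42 and 25.78 FPKM in NC and 20.72, 19.95 and 21.02 FPKM in FGL1-OE. ANXA9 had the lowest log2 fold change, -0.14, with a 95% interval of -0.49 to 0.20, and was -0.060 without NC replicate 3.

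**Figure D4:**
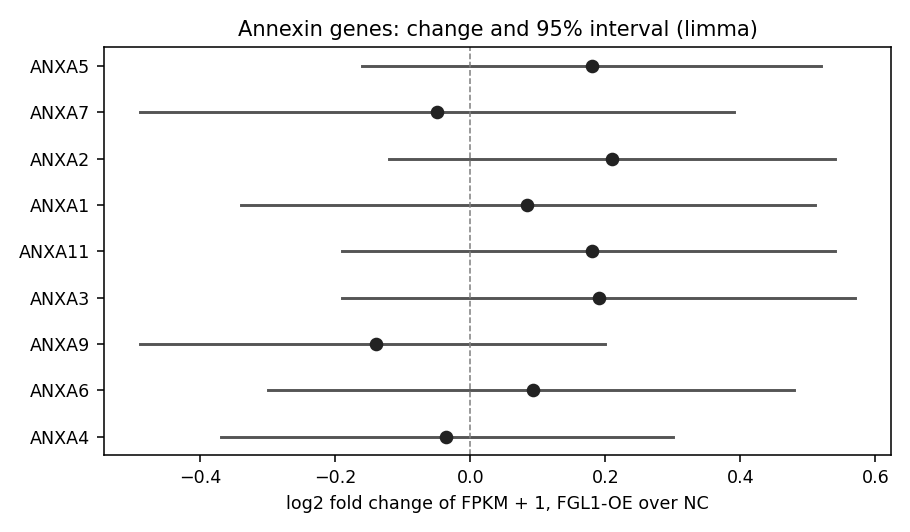
Log2 fold change of FPKM + 1 between FGL1-OE and NC for the 9 annexin genes (points) with the 95% interval from limma (lines), ordered by mean level. Every interval includes 0, from -0.14 for ANXA9 to 0.21 for ANXA2.

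Among the 47 listed transcripts, 45 had a mean of at least 0.5 FPKM and were tested, and ANXA2-209 and ANXA2-214 were below it. The log2 fold change lay above 0 for 22 transcripts and below 0 for 23, where 51.9% of all transcripts lay above 0, with a median of -0.0082 beside 0.017 over all transcripts. The groups did not overlap for 4 transcripts, 3 higher and 1 lower in FGL1-OE, where 8.22% of all transcripts tested did not overlap, 4.65% higher and 3.57% lower. Besides the pair from ANXA7, these were ANXA2-203 and ANXA6-201. Of the 47 models, 24 have a complete coding sequence in GENCODE v29 and 23 a partial one. The gene value was not the sum of the transcript values. The ratio of the transcript sum to the gene value was 0.987 to 1.00 for ANXA9, which has 1 listed transcript, 1.18 to 1.24 for ANXA7 and 6.40 to 8.22 for ANXA2.

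ANXA2 had 20 listed transcripts, and only 4 of them have a complete coding sequence. The leading model, ANXA2-203, was 192, 282 and 272 FPKM in NC and 321, 311 and 315 FPKM in FGL1-OE. All FGL1-OE libraries were higher, but NC replicate 1 was far below its own group (log2 fold change 0.36, SE 0.25, limma adjusted p = 1.000), and without it the log2 fold change was 0.19. Its share of the ANXA2 transcripts was 41.0%, 77.9% and 63.3% in NC and 61.3%, 72.3% and 73.2% in FGL1-OE. Several short partial models were high in a single library. In NC replicate 1, ANXA2-231 was 57.1 FPKM against 0.895 to 1.61 FPKM elsewhere and ANXA2-229 was 38.1 FPKM against 0 to 0.759 FPKM. ANXA2-230 was 55.8 FPKM in FGL1-OE replicate 1 and 0 to 0.0395 FPKM in the others. ANXA2-226 was 119, 20.2 and 53.0 FPKM in NC and 79.0, 36.0 and 26.9 FPKM in FGL1-OE, and ANXA2-232 was 2.83, 5.36 and 50.9 FPKM in NC and 40.3, 39.1 and 31 FPKM in FGL1-OE. The groups overlapped in each of these models, and without NC replicate 1 the log2 fold change went from -1.73 to -0.16 for ANXA2-231 and from -1.59 to 0.034 for ANXA2-229. ANXA2-204, with a complete coding sequence, was 0.362, 27.4 and 5.80 FPKM in NC and 4.81, 0.384 and 16.4 FPKM in FGL1-OE, and ANXA2-206 was 5.38, 10.8 and 21.6 FPKM in NC and 3.36, 23.3 and 18.2 FPKM in FGL1-OE. The remaining models were under 10 FPKM in the mean of either group. The ANXA2 values are uncertain for a further reason, since the gene has near-identical processed copies. Of the 31-base stretches of the gene's transcripts, 7.55% are found in ANXA2P2, 1.35% in ANXA2P1 and 0.747% in ANXA2P3, and of those of ANXA2-203 51.0% are found in another gene.

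For ANXA1, ANXA1-201 was 62.1, 155 and 120 FPKM in NC and 126, 143 and 113 FPKM in FGL1-OE. ANXA1-202, which has the same coding length of 1038 bases and starts farther downstream, was 23.3, 5.05 and 6.34 FPKM in NC and 3.87, 9.17 and 19.4 FPKM in FGL1-OE. NC replicate 1 and FGL1-OE replicate 3 had the highest ANXA1-202 values. ANXA3-201 was 48.7, 79.0 and 51.9 FPKM in NC and 80.6, 68.7 and 72.1 FPKM in FGL1-OE, and ANXA5-201 was 95.6, 143 and 130 FPKM in NC and 157, 135 and 140 FPKM in FGL1-OE. ANXA5-210, a shorter complete model with 660 coding bases against 960, was 38.0, 34.9 and 28.7 FPKM in NC and 33.1, 31.9 and 44.5 FPKM in FGL1-OE. These 5 transcripts had overlapping groups, and each limma adjusted p was 1.000. ANXA4-201 was 16.5, 20.6 and 14.1 FPKM in NC and 14.3, 15.7 and 15.0 FPKM in FGL1-OE, and the 1 listed ANXA9 transcript was 22.47, 20.16 and 25.68 FPKM in NC and 20.61, 19.95 and 20.90 FPKM in FGL1-OE.

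ANXA6 was read out mainly as ANXA6-211 and ANXA6-201, in similar amounts in both groups. ANXA6-201 was 13.1, 12.0 and 13.2 FPKM in NC and 15.1, 13.3 and 15.8 FPKM in FGL1-OE, just apart between the groups (log2 fold change 0.19, SE 0.22, limma adjusted p = 1.000). ANXA6-211 was 12.7, 16.2 and 24.3 FPKM in NC and 19.2, 17.3 and 17.8 FPKM in FGL1-OE. Like the ANXA7 pair, these models differ by a small coding exon, here of 18 bases and 6 codons in ANXA6-201 (chr5:151110627-151110644, GRCh38, minus strand), but they also differ in further coding exons, with 2019 and 1380 coding bases. The share of ANXA6-201 was 46.7%, 41.5% and 32.9% in NC and 40.2%, 42.7% and 46.5% in FGL1-OE, with overlapping groups.

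For ANXA11, the complete model ANXA11-203 was 55.8, 34.7 and 51.2 FPKM in NC and 51.9, 47.4 and 52.7 FPKM in FGL1-OE. The short partial model ANXA11-206 was 7.86, 21.1 and 45.1 FPKM in NC and 51.8, 50.5 and 44.0 FPKM in FGL1-OE. FGL1-OE replicate 3 lay below NC replicate 3, so the groups overlapped (log2 fold change 1.25, SE 0.59, limma adjusted p = 1.000). It was 0.64 without NC replicate 1 and 1.83 without NC replicate 3. Its share was 9.73%, 28.3% and 39.4% in NC and 41.4%, 43.4% and 38.0% in FGL1-OE. ANXA11-202, with the same coding length as ANXA11-203, was 10.2, 8.83 and 9.81 FPKM in NC and 12.1, 11.1 and 8.10 FPKM in FGL1-OE.

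In all, 46 transcripts of 8 annexin genes entered the test of shares, 17 with a difference above 0 and 29 below 0, where 50.0% of all shares lay above 0. The groups did not overlap for ANXA7-201, which was higher in FGL1-OE, and for ANXA7-202 and ANXA2-231, which were lower, 3 of 46 where 9.23% of all shares tested did not overlap, 4.81% higher and 4.42% lower. ANXA7-201 and ANXA7-202 were the annexin transcripts whose mean share differed by at least 20 percentage points, a size that 10.3% of all shares reached. The share of each gene's leading transcript had a wider range in NC than in FGL1-OE in 8 of 8 genes. This range was 36.9 percentage points in NC and 12.0 in FGL1-OE for ANXA2-203, 24.3 and 4.76 for ANXA11-203, and 4.55 and 1.75 for ANXA7-202. In the same way, the SD of log2 values was larger in NC for 8 of 9 genes and 34 of 47 transcripts.

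**Figure D5:**
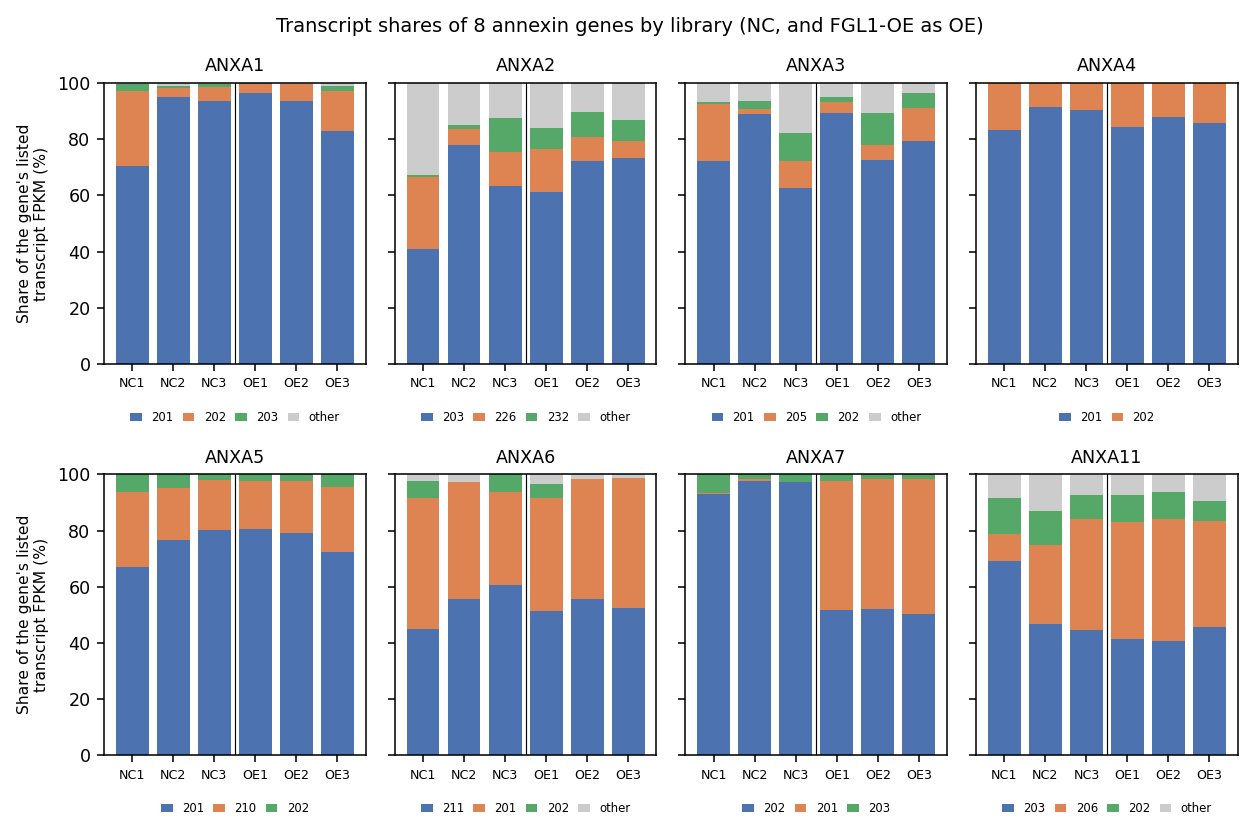
Share of each listed transcript in the summed FPKM of the listed transcripts of its gene, in percent, for 8 annexin genes and 6 libraries, with the 3 leading transcripts in colour and the rest in grey. ANXA7-201 takes 46.1% to 47.9% in FGL1-OE and at most 0.623% in NC, and NC replicate 1 has the lowest share of ANXA2-203, 41.0%.

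Added over the family, the gene values were 372, 437 and 402 FPKM in NC and 427, 441 and 423 FPKM in FGL1-OE, with overlapping groups. They made 0.176% to 0.206% of the summed FPKM of all listed genes. The summed transcript values were 1035, 1089 and 1103 FPKM in NC and 1248, 1179 and 1154 FPKM in FGL1-OE and did not overlap. These sums weigh ANXA2 heavily, whose transcripts made 362 to 524 FPKM, 6.40 to 8.22 times its gene value. They include its partial models that were high in a single library of either group. How often such sums do not overlap for other sets of genes was not tested. The listed gene values of a library summed to 210904 to 226307 FPKM.

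None of the listed annexin partner genes that were tested passed. Of 36 genes in 5 lists of partners 31 were analysed and 30 tested. With limma 0 of 30 passed at the adjusted level and 0 of 30 at an unadjusted p under 0.05, where 2.01% of all genes tested had such a p. The log2 fold change was above 0 for 19 of 30 with a median of 0.11, beside 53.7% and 0.016 over all genes tested. S100A10, which forms a tetramer with ANXA2, was 383, 399 and 349 FPKM in NC and 420, 481 and 450 FPKM in FGL1-OE, higher in every FGL1-OE library (log2 fold change 0.26, SE 0.14, limma adjusted p = 1.000). S100A11, a partner of ANXA1, was 323, 556 and 403 FPKM in NC and 537, 441 and 461 FPKM in FGL1-OE, and S100A6 was 514, 363 and 480 FPKM in NC and 521, 444 and 440 FPKM in FGL1-OE. ENO1, an enolase that also acts as a plasminogen receptor, was 705, 405 and 626 FPKM in NC and 663, 512 and 529 FPKM in FGL1-OE. These 4 were the partners of highest mean level. AHNAK, a large scaffold protein bound by ANXA2 with S100A10 and named here after its values were seen, was 5.10 FPKM in NC replicate 1 and 46.5 to 65.9 FPKM in the other libraries.

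By list, 7 of 8 S100 and calcium-sensor partners lay above 0 with a median log2 fold change of 0.20. Over all genes tested 53.7% lay above 0 with a median of 0.016, and no list was tested as a set. NC replicate 1 was the lowest library for SRI (4.83 FPKM against 8.14 to 9.07 elsewhere) and for PDCD6IP (10.5 against 16.2 to 24.0). It was also lowest for S100A11 and AHNAK, but not for S100A10, S100A6, PDCD6 and S100A4. Of the plasminogen system, 5 of 7 genes were tested and 4 lay above 0, with a median of 0.10. The scramblases and flippases, which set where phosphatidylserine is exposed, had 2 of 6 above 0 and a median of -0.073. The membrane repair genes had 6 of 10 above 0 and a median of 0.065. Of the ANXA1 receptors and the phospholipase it inhibits, PLA2G4A was the gene analysed, at 2.70, 5.28 and 2.93 FPKM in NC and 2.54, 3.35 and 3.40 FPKM in FGL1-OE.

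Patterns over the 6 libraries were compared by the mean absolute difference of the deviations of log2 values from each gene's own mean, over 3992 genes with a mean of at least 10 FPKM. Nearest to ANXA5 were NUDT5 (0.0158) and GPN1 (0.0204). For ANXA7 they were RPF1 (0.0417) and GOLM1 (0.0588), and for ANXA2 PGD (0.0215) and PRELID1 (0.0288). These are the closest of 3992 genes over only 6 libraries, where a search finds near neighbours in any case, and the likeness was not tested.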

How the data were processed

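RNA-seq of 3 NC and 3 FGL1-OE samples of TE-1 cells was analysed, grouped by the genotype in the labels. The authors deposited FPKM values per gene and per transcript for each library, without further scaling. The submitters' processing notes name StringTie and GRCh37, and the aligner, versions and annotation are not given in the sources used here. The tables also hold fold changes, p-values and q-values of the authors' own comparison, which were not used. No column was without a sample. With transcript lengths from GENCODE v29, low FPKM values did not fall on whole reads (at most 31.2% within 0.1 of a whole multiple). The lengths behind the FPKM values may differ, so this check cannot tell whether the values come from whole reads. The depth is unknown, and no counting intervals are given.

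Features averaging 0.5 FPKM or more over the libraries were tested with limma 3.58.1 (R 4.3.3) on log2(FPKM + 1), which understates the change of low values, and transcript shares (genes with at least 2 listed transcripts and 1 FPKM in every library) on the arcsine square root scale. Adjustment was by Benjamini and Hochberg over all features of a table, and calls were made under 0.05. For single values an exact permutation test (two-sided) over the libraries was added. Where 2 values were compared by overlap, no library of 1 group lay within the range of the other. The scripts were checked on simulated data. Transcript models and sequences came from GENCODE v29 (GRCh38), matched by identifier for 47 of 47 transcripts, and 31-base words were counted with Python 3.11.15. Loci of the tables are on GRCh37 and were not converted.

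The members, partner lists and markers were chosen with earlier results of these data known. Named in full were all member genes and FGL1. So were member transcripts averaging 10 FPKM or more in either group, or with a share change of at least 20 percentage points. Partner genes were named with an unadjusted p under 0.05 or if among the 4 of highest mean. The 2 genes most like each of the 3 leading members by gene value were named too. Replicate numbers were not taken to pair the samples (every same-numbered pair had to correlate over 0.1). Alternatives were the pseudocount, filter, scaling, normalization, variance moderation, replicate block and leaving out each library.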

Additional observations from a re-analysis of the deposited data

How the results depend on the processing

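No annexin gene was called under any alternative run. The count of all genes called was 1, 2 with an ordinary linear model and 1 to 7 when leaving out each library (7 without NC replicate 2). Of all transcripts 5 were called, 29 with a pseudocount of 0.1, 3 with an ordinary linear model and 1 to 28 when leaving out each library (28 without NC replicate 2, 1 without FGL1-OE replicate 2 or 3). Of all shares 12 were called, 19 with an ordinary linear model, 7 with at least 5 FPKM in every library and 0 to 46 when leaving out each library (46 without NC replicate 2, 0 without NC replicate 3 or FGL1-OE replicate 3). The single annexin transcript called, ANXA7-201, was lost (0 calls) with a pseudocount of 0.1, scaling to a common sum or an ordinary linear model, and calls numbered 0 to 1 when leaving out each library, with the call held only without NC replicate 2. The 1 annexin share called became 2 without transformation, when ANXA7-202 also passed (limma adjusted p = 0.0104), and 0 to 1 when leaving out each library. The cause of these changes was not tested.

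The replicate block, which takes the number as a factor, left 0 of all transcripts, 0 of all shares, 0 annexin transcripts and 0 annexin shares called, with adjusted p-values of 0.484 for ANXA7-201 and 0.811 for its share (limma). Deviations of samples with the same number correlated at 0.345, 0.282 and -0.0614 for numbers 1 to 3, and those with different numbers at -0.370 to 0.136. Replicate 3 of either group did not correlate best with its own number, so the condition that every pair exceed 0.1 was not met and the numbers were not taken to pair the samples.

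ANXA7-201 kept its direction in every alternative, at a log2 fold change of 5.10 to 5.56 when leaving out each library. The ANXA7 gene reversed with the sum of its listed transcripts, to 0.013. When leaving out each library, further differences reversed, with log2 fold changes of -0.062 to 0.21 for ANXA1, -0.073 to 0.034 for ANXA4, -0.17 to 0.081 for ANXA7, -0.11 to 0.55 for ANXA1-201, -0.54 to 0.59 for ANXA1-202, -0.014 to 0.25 for ANXA11-202, -0.078 to 0.26 for ANXA11-203, -1.42 to 0.77 for ANXA2-204, -0.38 to 0.86 for ANXA2-206, -0.89 to 0.37 for ANXA2-226, -2.61 to 0.034 for ANXA2-229, -0.05 to 0.18 for ANXA5-210 and -0.13 to 0.32 for ANXA6-211. So did differences in share on the arcsine square root scale, at -0.051 to 0.13 for ANXA1-201, -0.11 to 0.068 for ANXA1-202, -0.0053 to 0.15 for ANXA3-201, -0.012 to 0.064 for ANXA5-201, -0.039 to 0.017 for ANXA5-210, -0.0093 to 0.061 for ANXA6-201, -0.051 to 0.027 for ANXA6-211, -0.02 to 0.17 for ANXA2-203, -0.09 to 0.035 for ANXA2-204, -0.026 to 0.052 for ANXA2-206, -0.13 to 0.016 for ANXA2-226 and -0.14 to 0.00037 for ANXA2-229. With unknown depth, the precision of low FPKM values is set only by the 3 libraries of a group.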
